A study of Mus musculus with 2 samples.

Results

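The genes described here are the numbered cadherins and the non-clustered protocadherins of the mouse: every gene of the count matrix whose symbol is Cdh or Pcdh followed by digits only. There were 34 such genes, 23 cadherins and 11 protocadherins, among 31040 genes in the matrix. At least 1 transcript was counted for 33 of them, and together they held 644564 of 66566100 counted transcripts (0.968%). The rule uses symbols alone, although the family was picked for description with earlier results of these data known.

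Cadherins are membrane proteins that bind the same or a related cadherin on a neighbouring cell through calcium-dependent repeats, and the classical ones are tied to the actin cytoskeleton by catenins. In the cortex different neurons carry different combinations of them, which are known for roles in the sorting of cells into layers, in axon guidance and in the matching of synaptic partners. Protocadherins of the delta group adhere more weakly and also act in signalling and cell movement, while cadherin 23 and protocadherin 15 form the tip links of sensory hair cells in the inner ear.

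RNA of single nuclei was sequenced from the prefrontal cortex of mice given methamphetamine (METH), a stimulant drug, or saline. The METH group received 5 mg/kg METH intraperitoneally for 14 days and the Control group received saline by the same route. All animals were wild type C57BL/6 males of 2 months, and the tissue of 3 mice per group was used for 1 library each, made from nuclei purified on iodixanol with 10x chemistry for 3′ ends. The matrix holds 2 libraries, told apart by a number at the end of each nuclear barcode, but no label ties a number to METH or Control, so METH and Control were not compared, and the text speaks of library 1 and library 2.

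The values are counts of unique molecular identifiers (UMIs, 1 per captured transcript), with 31273163 UMIs on 9890 barcodes in library 1 and 35292937 on 10876 in library 2, and 154 barcode sequences occurred in both. After removal of barcodes with under 500 genes and of called doublets, 18002 nuclei remained, with a median of 3047 UMIs in library 1 and 2924 in library 2. Classes of nuclei were named from fixed marker genes that include no cadherin or protocadherin, and the members were kept out of the clustering. A class name therefore means only a likeness in those markers. Over 100 nuclei were named for each of 9 classes, among them 1395 striatal projection neurons and 180 neuroblasts, although the labels give prefrontal cortex alone, and 935 nuclei stayed unnamed. The UMIs of a gene were summed over all nuclei of a class and divided by the UMIs of the class and are given as CPM (counts per 1000000), with exact Poisson 95% intervals in parentheses. Both libraries were pooled into 1 sample without replicates, so the intervals cover counting error only, no p-value is given, and the value of each library shows how far the 2 differ. Values of different genes are not compared as levels.

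A gene is said to stand apart in a class where its CPM was at least 2 times that of the next class in the pooled counts and in each library, with the same highest class in all of them. It is said to span a 4-fold range where its highest class reached at least 4 times its lowest, again in the pooled counts and in each library, with counts under 3 taken as 3. Members needed at least 50 UMIs over the classes compared. Cdh1, Cdh3, Cdh5, Cdh16, Cdh17, Cdh26 and Pcdh12 stayed under that number and Cdh15 had no UMI, which left 26 members over classes and over neuronal subclasses. For the same reason Cdh23 and Pcdh18 were left out over excitatory layers, where 24 members remained. Cdh15 overlaps Gm20388 on the same strand, a gene with 66325 UMIs. Whether this overlap kept UMIs from being counted for Cdh15 was not tested.

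All 34 genes were found by identifier in the GENCODE M21 annotation of GRCm38, the build of the files, and several lie next to each other. On chromosome 15, Cdh6, Cdh9, Cdh10, Cdh12 and Cdh18 follow one another with no other protein-coding gene between them. The gaps run from 959.5 kb between Cdh12 and Cdh18 to 3555.1 kb between Cdh6 and Cdh9. Cdh8, Cdh11 and Cdh5 on chromosome 8, Cdh7 and Cdh19 on chromosome 1, Cdh26 and Cdh4 on chromosome 2, and Pcdh20 and Pcdh9 on chromosome 14 are likewise direct neighbours among protein-coding genes. The members span from 4.5 kb for Pcdh8 to 1550.4 kb for Pcdh15. The promoter table of RefSeq (GRCm38.p6) held 22 of the 34 genes. Below are the 250 bases before the start that the RefSeq table gives, 5′ to 3′, of the 4 genes that stood apart in a neuronal subclass or layer, shown because the neuronal results turn on them. Capitals mark a match to TATAAA (the TATA box), to the E-box CACGTG or to the E-box with the letters CAGCTG, each searched on both strands.
Pcdh15: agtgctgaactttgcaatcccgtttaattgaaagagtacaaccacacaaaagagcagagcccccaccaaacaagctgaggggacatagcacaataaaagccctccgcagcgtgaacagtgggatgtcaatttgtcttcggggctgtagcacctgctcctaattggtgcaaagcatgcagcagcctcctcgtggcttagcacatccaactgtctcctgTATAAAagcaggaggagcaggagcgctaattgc
Cdh24: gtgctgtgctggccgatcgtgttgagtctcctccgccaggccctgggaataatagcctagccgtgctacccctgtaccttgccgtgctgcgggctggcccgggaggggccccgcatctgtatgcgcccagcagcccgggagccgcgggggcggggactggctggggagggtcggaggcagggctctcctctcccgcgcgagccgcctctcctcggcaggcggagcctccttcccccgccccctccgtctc
Pcdh20: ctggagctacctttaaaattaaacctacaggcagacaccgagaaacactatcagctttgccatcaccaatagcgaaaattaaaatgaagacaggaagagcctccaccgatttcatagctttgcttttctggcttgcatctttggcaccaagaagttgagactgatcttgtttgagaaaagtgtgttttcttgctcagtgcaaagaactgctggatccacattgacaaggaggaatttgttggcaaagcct
Cdh20: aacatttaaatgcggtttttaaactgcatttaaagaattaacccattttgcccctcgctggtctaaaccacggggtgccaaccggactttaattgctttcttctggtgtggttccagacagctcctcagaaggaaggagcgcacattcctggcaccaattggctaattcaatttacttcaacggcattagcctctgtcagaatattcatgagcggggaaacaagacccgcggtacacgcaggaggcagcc
The windows are chr10:73821617-73821866 on the plus strand for Pcdh15, chr14:54641365-54641614 on the minus strand for Cdh24, chr14:88471397-88471646 on the minus strand for Pcdh20 and chr1:104768270-104768519 on the plus strand for Cdh20. The RefSeq start used for Pcdh15 lies inside the GENCODE gene, which spans chr10:73099342-74649737, so its window is that of an internal start and not of the start of the whole gene. The only match in these 4 is TATAAA in Pcdh15, which begins 33 bases before the start. Of 32536 distinct promoter windows of the same length in the table, 12.3% held the TATA box motif, 6.0% the first E-box and 13.1% the second. Among 25 distinct windows of members, 2 held the TATA box motif (Pcdh15 and Pcdh8), 1 the first E-box (Cdh15) and 2 the second (Cdh9 and Cdh12). The Cdh9, Cdh12 and Cdh15 windows also precede starts inside the GENCODE genes. The sequences differ widely in base composition. The window of Cdh24 has 22 CG dinucleotides and 72.8% G and C, that of Cdh20 has 10 and 47.6%, that of Pcdh15 has 6 and 50.4%, and that of Pcdh20 has 3 and 42.4%. The medians over all windows were 6 CG dinucleotides and 52.4%. These are descriptions of sequence, and no binding was measured.

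Across the 9 classes, 5 of 26 members stood apart, beside 10.9% of 15801 genes tested in the same way. A 4-fold range was seen in 20 of 26 members, beside 39.5% of all genes. The median ratio of highest to lowest class was 9.85 for the members and 4.06 for all genes, while the median ratio of highest to next class was 1.33 and 1.3. The members had more UMIs, with a median of 7453 against 1113 for all genes. Among genes with at least 500 UMIs, 17 of 23 members and 32.9% of all genes spanned the 4-fold range. The 5 that stood apart did so in glia: Cdh23 in microglia, Pcdh9 in oligodendrocytes, Pcdh15 in oligodendrocyte precursors, and Cdh20 and Pcdh7 in differentiating oligodendrocytes. The other 21 did not stand apart in any class. How many of all genes that stood apart did so in glia is not given here. The 5 glial calls are therefore not read as a trait of the members.

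**Figure D1:**
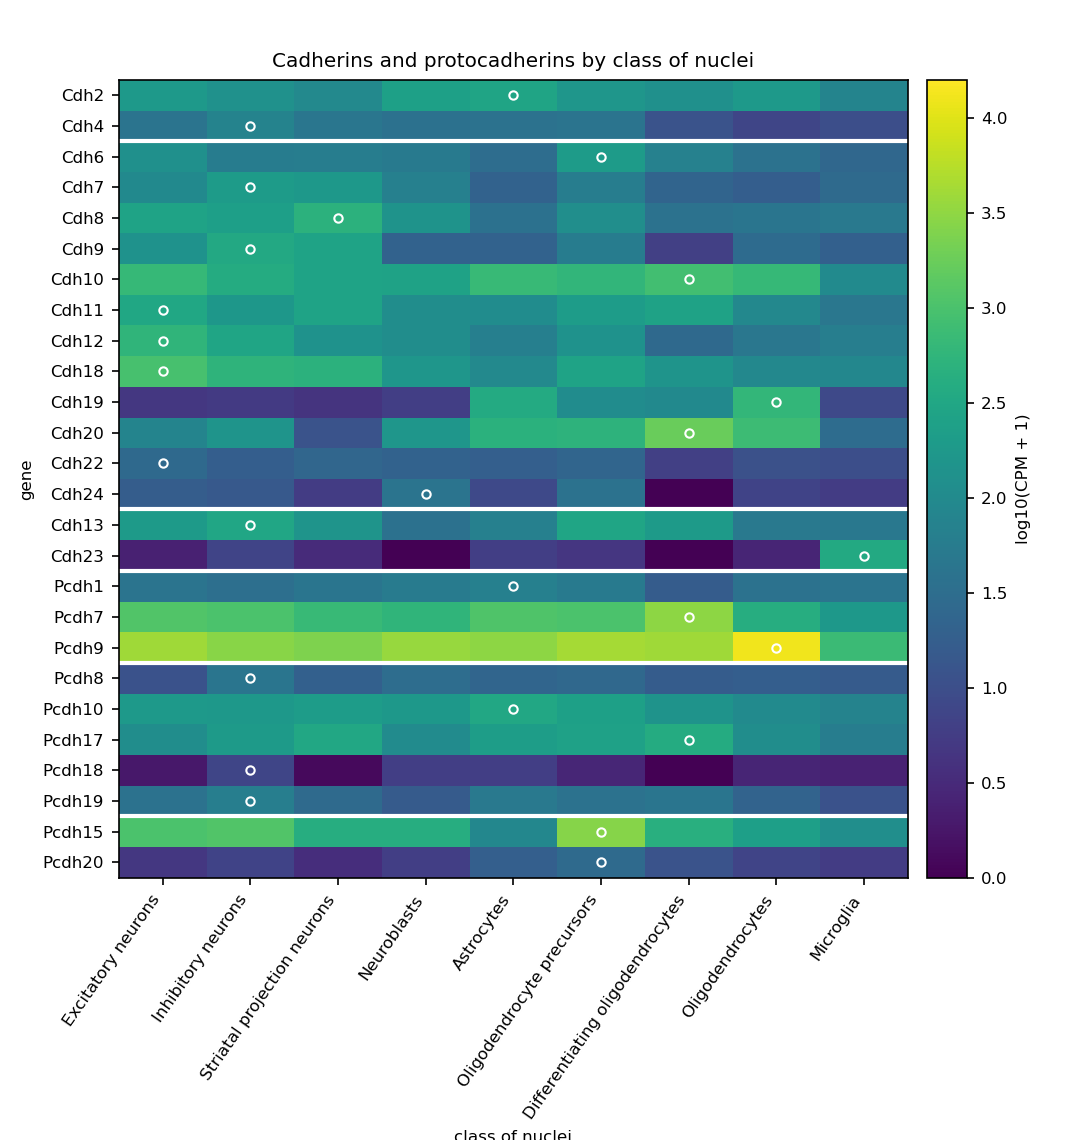
Level of the 26 members with at least 50 UMIs (rows, grouped by type of cadherin between white lines) in 9 classes of nuclei (columns), as log10(CPM + 1). White circles mark the highest class of each gene: Cdh23 is bright in microglia alone (361 CPM, next 6.28), while Pcdh9 was counted in all classes and is highest in oligodendrocytes (12777 CPM).

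Cdh23, the tip-link cadherin, had the widest gap of all members between its highest and its next class. It reached 361 CPM (317 to 410.1) in microglia, the immune cells of the brain, with 383 in library 1 and 344 in library 2. Elsewhere it stood at 1.44 in excitatory neurons, 6.28 in inhibitory neurons, 2.31 in striatal projection neurons, 5.05 in astrocytes, 3.66 in oligodendrocyte precursors and 1.75 in oligodendrocytes, with no UMI in neuroblasts or differentiating oligodendrocytes. Microglia thus exceeded inhibitory neurons 57.5-fold (42.9 to 78.4), and the ratio was 69.3 in library 1 and 50 in library 2. The microglial value rests on 240 UMIs. After each nucleus was thinned to 1000 UMIs, Cdh23 was seen in 26.8% (15.8 to 40.3, 15 of 56 nuclei, 23.1% unthinned) of microglia and in 0.158% (0.0815 to 0.275, 12 of 7609 nuclei, 0.641% unthinned) of excitatory neurons, but thinning left out 826 of 882 microglia as too shallow. With a minimum of 1000 genes per nucleus the ratio was 12.8. Perivascular macrophages, a class of 60 nuclei, held 5 UMIs of Cdh23, or 46.8 CPM (15.2 to 109). Cdh23 (chr10:60302748-60696490, minus strand) overlaps Vsir, an immune checkpoint gene on the other strand. Vsir was itself highest in microglia, at 717 CPM (654 to 784), with 27.8 in astrocytes, 7.11 in excitatory and 11 in inhibitory neurons. Whether strand was used in counting is not given in the sources used here, so UMIs of the 2 genes cannot be told apart for certain.

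Pcdh9, a delta-1 protocadherin, was counted in every class and was highest in oligodendrocytes, the myelin-forming cells. CPM were 3976 in excitatory neurons, 2860.5 in inhibitory neurons, 2462 in striatal projection neurons, 3555 in neuroblasts, 3037 in astrocytes, 4290.2 in oligodendrocyte precursors, 4003 in differentiating oligodendrocytes, 12777 in oligodendrocytes and 724 in microglia. Oligodendrocytes had 13014 in library 1 and 12521 in library 2, and no other class came near in either library. Oligodendrocytes exceeded their precursors 2.98-fold (2.86 to 3.11). The microglial level of Pcdh9, Pcdh7, Pcdh15 and Cdh20 did not exceed the free RNA limit, an upper limit for what RNA released from broken cells could give. The class that is lowest against an index of free RNA sets this limit for a gene and cannot exceed it. Microglia set it for Pcdh9 and Pcdh7, astrocytes for Pcdh15, and striatal projection neurons for Cdh20 and Cdh19. For those pairs the result was fixed in advance. Pcdh7, the other delta-1 gene with many UMIs, was highest one step earlier in the lineage, in differentiating oligodendrocytes. CPM of Pcdh7 were 1143 in excitatory neurons, 1019.6 in inhibitory neurons, 674 in striatal projection neurons, 559 in neuroblasts, 1102 in astrocytes, 1019.9 in oligodendrocyte precursors, 3086 in differentiating oligodendrocytes, 419 in oligodendrocytes and 172 in microglia. Its level in differentiating oligodendrocytes had 3254 in library 1 and 2996 in library 2, and it exceeded excitatory neurons 2.70-fold (2.48 to 2.93). In mature oligodendrocytes it was below precursors and below both large neuronal classes. With doublets kept the ratio was 1.99.

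Cdh20, a type II cadherin, shared that peak. CPM were 77.4 in excitatory neurons, 149 in inhibitory neurons, 11 in striatal projection neurons, 158 in neuroblasts, 478 in astrocytes, 509 in oligodendrocyte precursors, 1764 in differentiating oligodendrocytes, 760.0 in oligodendrocytes and 30.1 in microglia. Differentiating oligodendrocytes had 2103 in library 1 and 1584 in library 2 and exceeded oligodendrocytes 2.32-fold (2.06 to 2.61). The ratio was 2.85 in library 1 and 2.02 in library 2, so library 2 lies just past the 2-fold limit, and with doublets kept it was 1.66. The class holds 112 nuclei. Unlike Pcdh7, Cdh20 stayed above its precursor level in mature oligodendrocytes, and in all glia of this lineage and in astrocytes it was above its level in each neuronal class. Thinned to 1000 UMIs, it was seen in 66.7% (56.5 to 75.8, 66 of 99 nuclei, 75.0% unthinned) of differentiating oligodendrocytes, 42.3% (38.7 to 45.9, 321 of 759 nuclei, 43.9% unthinned) of oligodendrocytes and 0.966% (0.515 to 1.65, 13 of 1346 nuclei, 2.65% unthinned) of striatal projection neurons, whose level did not exceed the free RNA limit.

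Pcdh15, the partner of Cdh23 in the ear, was highest in oligodendrocyte precursors. CPM were 1024 in excitatory neurons, 1151 in inhibitory neurons, 416 in striatal projection neurons, 417 in neuroblasts, 85.9 in astrocytes, 2686 in oligodendrocyte precursors, 453 in differentiating oligodendrocytes, 236 in oligodendrocytes and 119 in microglia. Precursors had 2761 in library 1 and 2655 in library 2 and exceeded inhibitory neurons 2.33-fold (2.21 to 2.47). With doublets kept the ratio was 2.07 and Pcdh15 no longer stood apart. Along the lineage its level was lower at each step, from 2686 in precursors over 453 in differentiating to 236 in mature oligodendrocytes. It was seen in 92.1% (88.1 to 95, 244 of 265 nuclei, 94.9% unthinned) of thinned precursors and in 6.61% (3.83 to 10.5, 16 of 242 nuclei, 10.7% unthinned) of astrocytes, whose level did not exceed the free RNA limit. Cdh19, the type II cadherin of Schwann cell precursors, marked glia as well but 2 kinds of them: 604 CPM (576 to 633) in oligodendrocytes and 366 CPM (309 to 431) in astrocytes. Oligodendrocytes had 689 in library 1 and 513 in library 2, astrocytes had 511 in library 1 and 340.2 in library 2, precursors had 108 and differentiating oligodendrocytes 95.9. In the other 5 classes it ran from 3.34 to 7.53 CPM and did not exceed the free RNA limit.

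**Figure D2:**
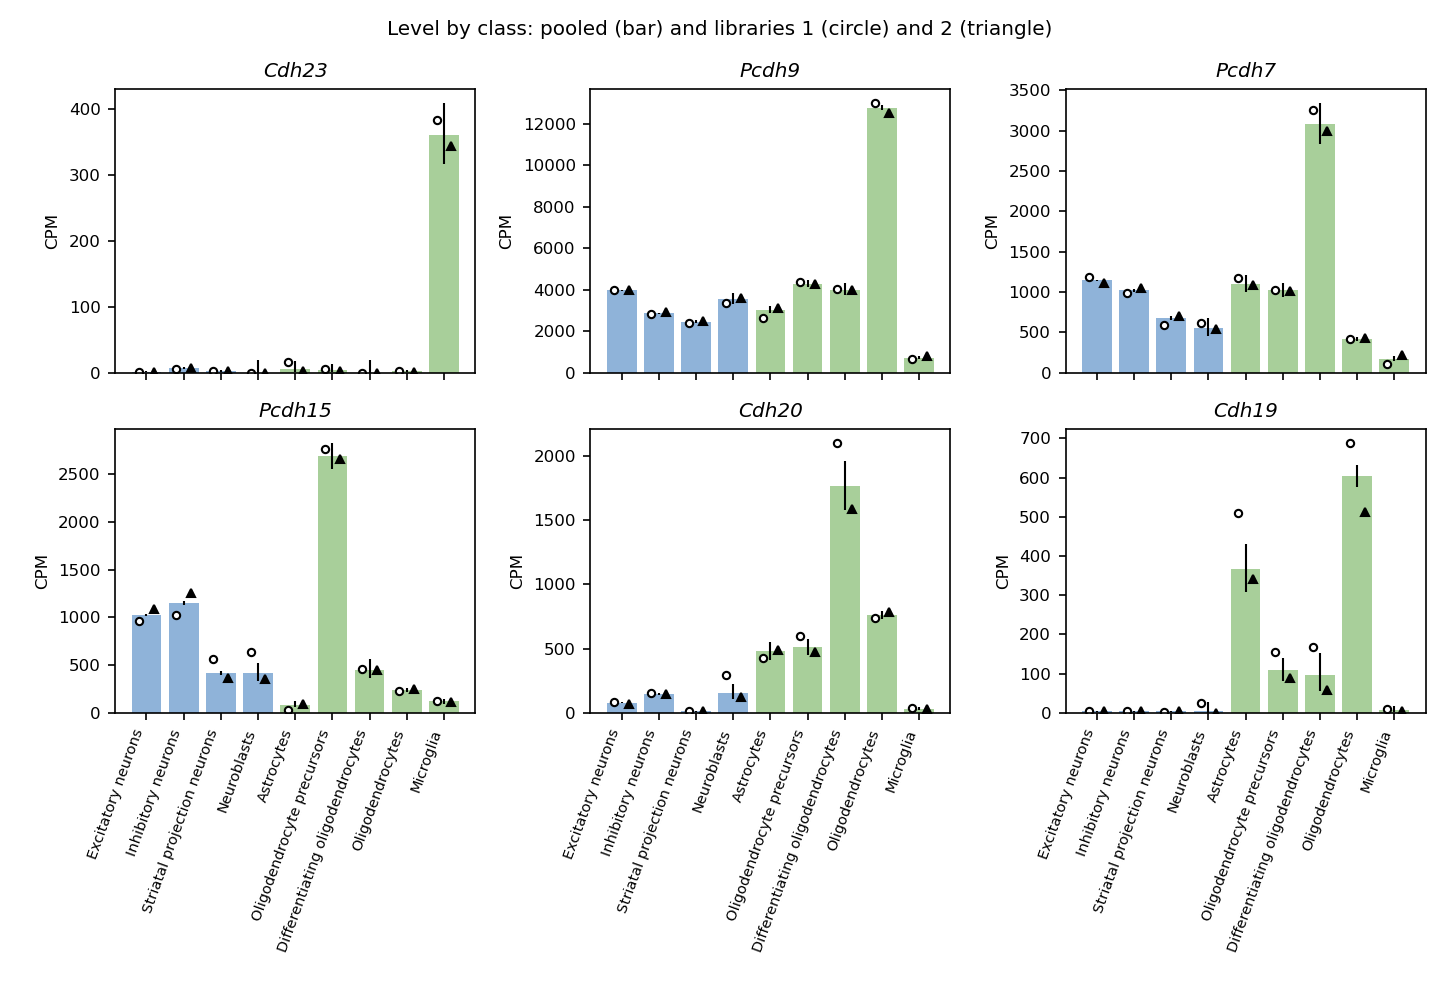
CPM (vertical axes, linear from 0) of 6 members in 9 classes: bars are pooled values with exact Poisson 95% intervals, circles library 1, triangles library 2, blue neuronal and green glial classes. Each of the 6 peaks in a glial class in both libraries, from Cdh23 in microglia to Cdh19 in oligodendrocytes.

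The remaining members were spread over neurons or over all classes. Cdh8, a type II cadherin, was highest in striatal projection neurons. CPM of Cdh8 were 268 in excitatory neurons, 234 in inhibitory neurons, 501 in striatal projection neurons, 142 in neuroblasts, 35.4 in astrocytes, 117 in oligodendrocyte precursors, 37.3 in differentiating oligodendrocytes, 42.4 in oligodendrocytes and 49.7 in microglia. It exceeded excitatory neurons 1.87-fold (1.78 to 1.96), with ratios of 1.69 in library 1 and 1.93 in library 2. Cdh12 and Cdh18, neighbours on chromosome 15, were highest in excitatory neurons, at 555 CPM (547 to 563) and 953 CPM (943 to 963), and exceeded inhibitory neurons 1.86-fold (1.79 to 1.94) and 1.81-fold (1.75 to 1.86). For Cdh18 the ratio was 2.22 in library 1 and 1.53 in library 2. Inhibitory neurons were the highest class for Cdh4 (73.9 CPM), Cdh7 (201) and Cdh9 (348) in both libraries. Cdh6 was highest in oligodendrocyte precursors, at 203 CPM (167 to 245), with 128 in excitatory neurons. Cdh2 (N-cadherin), Cdh10, Cdh11, Pcdh10 and Pcdh17 were counted broadly: their lowest class was microglia, at 76.8, 102, 45.2, 75.3 and 58.7 CPM, and their highest reached 288, 842, 312, 323 and 378. For Pcdh17 the highest class was differentiating oligodendrocytes, but this gene overlaps 9630013A20Rik on the other strand. That RNA is one of the markers that named the class and stood there at 5410 CPM (5080 to 5750), and whether its UMIs enter the Pcdh17 count was not tested. Cdh13 was alike in inhibitory neurons (303) and oligodendrocyte precursors (295), and the libraries differ in which was higher. Cdh22, Cdh24, Pcdh1, Pcdh8, Pcdh18, Pcdh19 and Pcdh20 did not have the same highest class in both libraries, or had intervals of the ratio that include 1.

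Nuclei of 13 neuronal subclasses were named: excitatory layer 2/3 and layer 4/5 intratelencephalic (IT), layer 5 extratelencephalic (ET), layer 5/6 near-projecting (NP), layer 6 corticothalamic (CT), layer 6b and claustrum, interneurons with parvalbumin (PV), somatostatin (SST), VIP or LAMP5 markers, and striatal projection neurons with D1 or D2 receptor markers. A further 1143 excitatory, 557 inhibitory and 312 striatal nuclei took no subclass name, among them 1 excitatory cluster of 672 nuclei, so every order of subclasses below is over named ones only. Not every marker was highest in the subclass it named. Rorb (515 CPM), Il1rapl2 (1239) and Endou (5.64) were highest in layer 4/5 IT. Rspo1, Scnn1a, Whrn, Tmem215, Thsd7a, Deptor and Etv1, of the same list, were highest elsewhere. Of the PV list, Pvalb (112), Btbd11, Ank1, Syt2 and Cox6a2 were highest in PV interneurons, and Pthlh, Tac1, Tpbg and Vipr2 elsewhere. A 4-fold range over the named subclasses was seen in 21 of 26 members, beside 26.5% of 14992 genes tested. With at least 500 UMIs required it was 18 of 22 members and 19.9% of genes. The median ratio of highest to lowest subclass was 10.6 for the members and 2.98 for all genes. Only 3 of 26 members stood apart in 1 subclass, beside 2.41% of all genes: Pcdh15 in claustrum, Cdh24 in layer 6b and Pcdh20 in VIP interneurons. By type, the range was spanned by 11 of 12 type II cadherins, 5 of 5 delta-2 protocadherins and 0 of 3 delta-1 protocadherins.

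**Figure D3:**
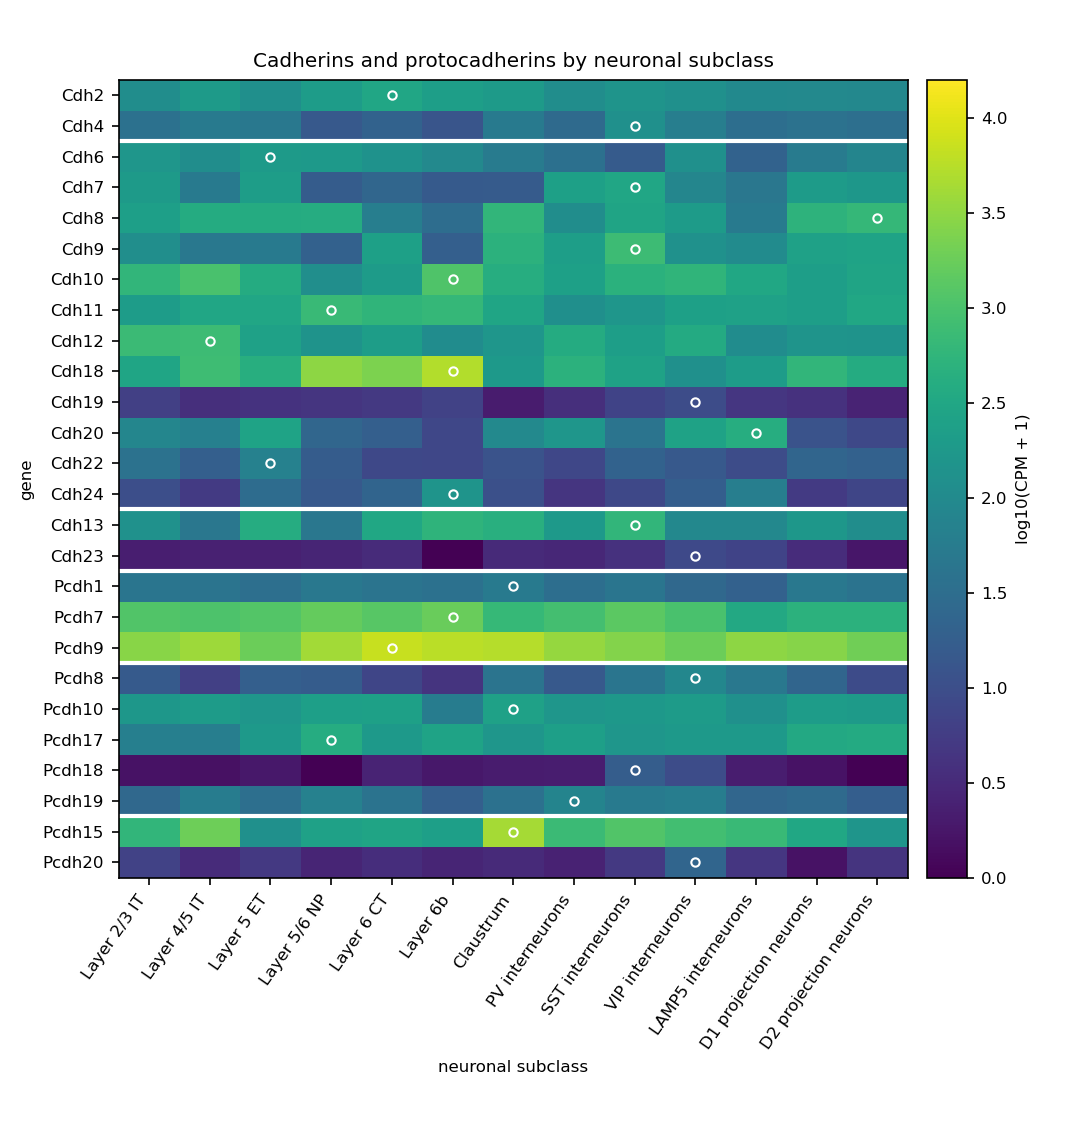
Level of 26 members (rows, grouped by type between white lines) in 13 neuronal subclasses (columns), as log10(CPM + 1), with a white circle at the highest subclass of each gene. Cdh18 is bright from layer 5/6 NP to layer 6b, Pcdh15 in claustrum and layer 4/5 IT, and Pcdh9 in every column.

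Of the type I cadherins, which bind mostly their own kind, Cdh4 (R-cadherin) was highest in SST interneurons, at 129 CPM (116 to 143), with 143 in library 1 and 116 in library 2. In excitatory subclasses its CPM were 36.2 in layer 2/3 IT, 49.9 in layer 4/5 IT, 46.8 in layer 5 ET, 14.1 in layer 5/6 NP, 19.7 in layer 6 CT, 11.7 in layer 6b and 50.4 in claustrum, and elsewhere 26.9 in PV interneurons, 129 in SST interneurons, 62.6 in VIP interneurons, 32.0 in LAMP5 interneurons, 37.7 in D1 projection neurons and 33.7 in D2 projection neurons. SST exceeded VIP interneurons 2.06-fold (1.56 to 2.76), with ratios of 2.22 in library 1 and 1.90 in library 2, so library 2 falls short of 2-fold. Cdh2 did not span a 4-fold range. It stood at 113 in layer 2/3 IT, 196 in layer 4/5 IT, 124 in layer 5 ET, 206 in layer 5/6 NP, 302 in layer 6 CT, 221 in layer 6b and 194 in claustrum, and at 113 in PV interneurons, 149.5 in SST interneurons, 129 in VIP interneurons, 98.5 in LAMP5 interneurons, 92.2 in D1 projection neurons and 89.2 in D2 projection neurons. Layer 6 CT was highest in both libraries, 1.37-fold (1.20 to 1.56) above layer 6b.

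Among the type II cadherins, Cdh18 was high in layer 6b, layer 5/6 NP and layer 6 CT but not in layer 5 ET. In excitatory subclasses its CPM were 291 in layer 2/3 IT, 791 in layer 4/5 IT, 431 in layer 5 ET, 3022 in layer 5/6 NP, 2388 in layer 6 CT, 5152 in layer 6b and 178 in claustrum. In the others they were 502 in PV interneurons, 258 in SST interneurons, 129 in VIP interneurons, 209 in LAMP5 interneurons, 578 in D1 projection neurons and 381 in D2 projection neurons. Layer 6b had 5194 in library 1 and 5084 in library 2, layer 5/6 NP 2812 in library 1 and 3184 in library 2 and layer 6 CT 2522 in library 1 and 2248 in library 2. These 3 deep subclasses did not overlap with any other named one, and the next, layer 4/5 IT, was at 791 CPM (774 to 808). Layer 6b exceeded layer 5/6 NP 1.70-fold (1.62 to 1.80), under the 2-fold limit. Thinned to 1000 UMIs, Cdh18 was seen in 96.6% (93.7 to 98.5, 259 of 268 nuclei, 99.6% unthinned) of layer 6b, 85.0% (82.9 to 86.9, 1093 of 1286 nuclei, 98.5% unthinned) of layer 6 CT, 22.6% (20.7 to 24.5, 429 of 1901 nuclei, 57.4% unthinned) of layer 2/3 IT and 7.14% (1.98 to 17.3, 4 of 56 nuclei, 5.56% unthinned) of microglia. Claustrum, a deep structure too, had the lowest level among excitatory subclasses.

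Cdh24 stood apart in layer 6b, the deepest layer of the cortex, at 147 CPM (126 to 171), with 146 in library 1 and 149 in library 2. In the other excitatory subclasses its CPM were 9.20 in layer 2/3 IT, 4.25 in layer 4/5 IT, 29.4 in layer 5 ET, 14.1 in layer 5/6 NP, 21.6 in layer 6 CT and 9.64 in claustrum, and elsewhere 3.41 in PV interneurons, 7.03 in SST interneurons, 17.0 in VIP interneurons, 60.5 in LAMP5 interneurons, 4.19 in D1 projection neurons and 6.43 in D2 projection neurons. LAMP5 interneurons were next, and layer 6b exceeded them 2.44-fold (1.77 to 3.40), with ratios of 2.14 in library 1 and 2.84 in library 2. Over excitatory layers alone the ratio to the next, layer 5 ET, was 5.02-fold (3.91 to 6.46). The gene gave few UMIs: thinned to 1000, it was seen in 14.6% (10.6 to 19.4, 39 of 268 nuclei, 42.8% unthinned) of layer 6b and 0.189% (0.0516 to 0.484, 4 of 2114 nuclei, 2.17% unthinned) of layer 4/5 IT.

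Cdh20 was highest in LAMP5 interneurons, while among excitatory subclasses both it and Cdh22 were highest in layer 5 ET neurons, which send axons to the brainstem and spinal cord. Cdh20 was at 82.7 in layer 2/3 IT, 67.4 in layer 4/5 IT, 269 in layer 5 ET, 22.9 in layer 5/6 NP, 17.4 in layer 6 CT, 6.70 in layer 6b and 95.3 in claustrum in excitatory subclasses and at 158 in PV interneurons, 40.3 in SST interneurons, 265 in VIP interneurons, 413 in LAMP5 interneurons, 10.8 in D1 projection neurons and 7.23 in D2 projection neurons in the others. LAMP5 interneurons were highest, with 404 in library 1 and 422 in library 2, and exceeded layer 5 ET 1.54-fold (1.35 to 1.74), a ratio of 1.21 in library 1 and 2.17 in library 2. Layer 5 ET had 333 in library 1 and 194 in library 2. Cdh22 was at 37.2 in layer 2/3 IT, 17.9 in layer 4/5 IT, 68.2 in layer 5 ET, 15.8 in layer 5/6 NP, 7.05 in layer 6 CT, 6.70 in layer 6b and 10.7 in claustrum in excitatory subclasses and at 6.82 in PV interneurons, 20 in SST interneurons, 13.8 in VIP interneurons, 8.31 in LAMP5 interneurons, 22.7 in D1 projection neurons and 19.3 in D2 projection neurons in the others. Layer 5 ET exceeded layer 2/3 IT 1.83-fold (1.55 to 2.16), with ratios of 2.15 in library 1 and 1.53 in library 2.

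Cdh9, a cadherin known from hippocampal synapses, was highest in SST interneurons and second in claustrum. Its CPM were 119.8 in layer 2/3 IT, 47.5 in layer 4/5 IT, 51.3 in layer 5 ET, 19.4 in layer 5/6 NP, 246 in layer 6 CT, 17.6 in layer 6b and 491 in claustrum, and 228 in PV interneurons, 743 in SST interneurons, 132 in VIP interneurons, 107 in LAMP5 interneurons, 254 in D1 projection neurons and 267 in D2 projection neurons. SST interneurons had 779.9 in library 1 and 709 in library 2 and claustrum had 646 in library 1 and 399 in library 2. SST exceeded claustrum 1.51-fold (1.37 to 1.68), and the ratio was 1.21 in library 1 and 1.78 in library 2. In thinned nuclei Cdh9 was seen in 38.5% (35.2 to 41.9, 321 of 834 nuclei, 60.1% unthinned) of SST interneurons and 2.61% (1.06 to 5.31, 7 of 268 nuclei, 7.43% unthinned) of layer 6b. Cdh19, high in glia, was low in all 13 subclasses, at 5.33 in layer 2/3 IT, 2.68 in layer 4/5 IT, 3.14 in layer 5 ET, 3.52 in layer 5/6 NP, 3.94 in layer 6 CT, 5.86 in layer 6b and 1.07 in claustrum, and at 2.65 in PV interneurons, 5.92 in SST interneurons, 8.48 in VIP interneurons, 3.56 in LAMP5 interneurons, 2.99 in D1 projection neurons and 1.61 in D2 projection neurons. Only layer 2/3 IT, at 5.33, exceeded the free RNA limit, and the libraries differ in the highest subclass.

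The other type II cadherins each followed a different division. Cdh12 was highest in the named IT subclasses, at 764 CPM (747 to 781) in layer 4/5 IT and 725 CPM (708 to 743) in layer 2/3 IT, against 108 to 256 in the other excitatory subclasses. No deep-layer IT subclass was named, so layer and projection type cannot be told apart here. Cdh10 was highest in layer 6b at 1084 CPM (1026 to 1145), next to layer 4/5 IT at 988 CPM (969 to 1006), and lowest in layer 5/6 NP at 118. Among excitatory subclasses Cdh11 was highest where Cdh18 was high: 699 in layer 5/6 NP, 619 in layer 6b and 551 in layer 6 CT. Layer 5 ET was at 300.3 and PV interneurons were at 124. Cdh8 was low in layer 6b (31.0) and layer 6 CT (60.7) but not in layer 5/6 NP (393). It was at 626 in D2 projection neurons, 584 in claustrum and 521 in D1 projection neurons. Cdh7 was at 304 in SST and 244 in PV against 45.1 in LAMP5 interneurons. Among excitatory subclasses it was at 216 in layer 5 ET and 196 in layer 2/3 IT, against 14.2 to 23.6 in layer 5/6 NP, layer 6 CT, layer 6b and claustrum. Cdh6 was at 196 in layer 5 ET and 125 in VIP interneurons but at 15.2 in SST and 20.2 in LAMP5 interneurons. For Cdh6, Cdh8 and Cdh11 the interval of the ratio of highest to next subclass includes 1, so those neighbours in the order do not differ beyond counting error.

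**Figure D4:**
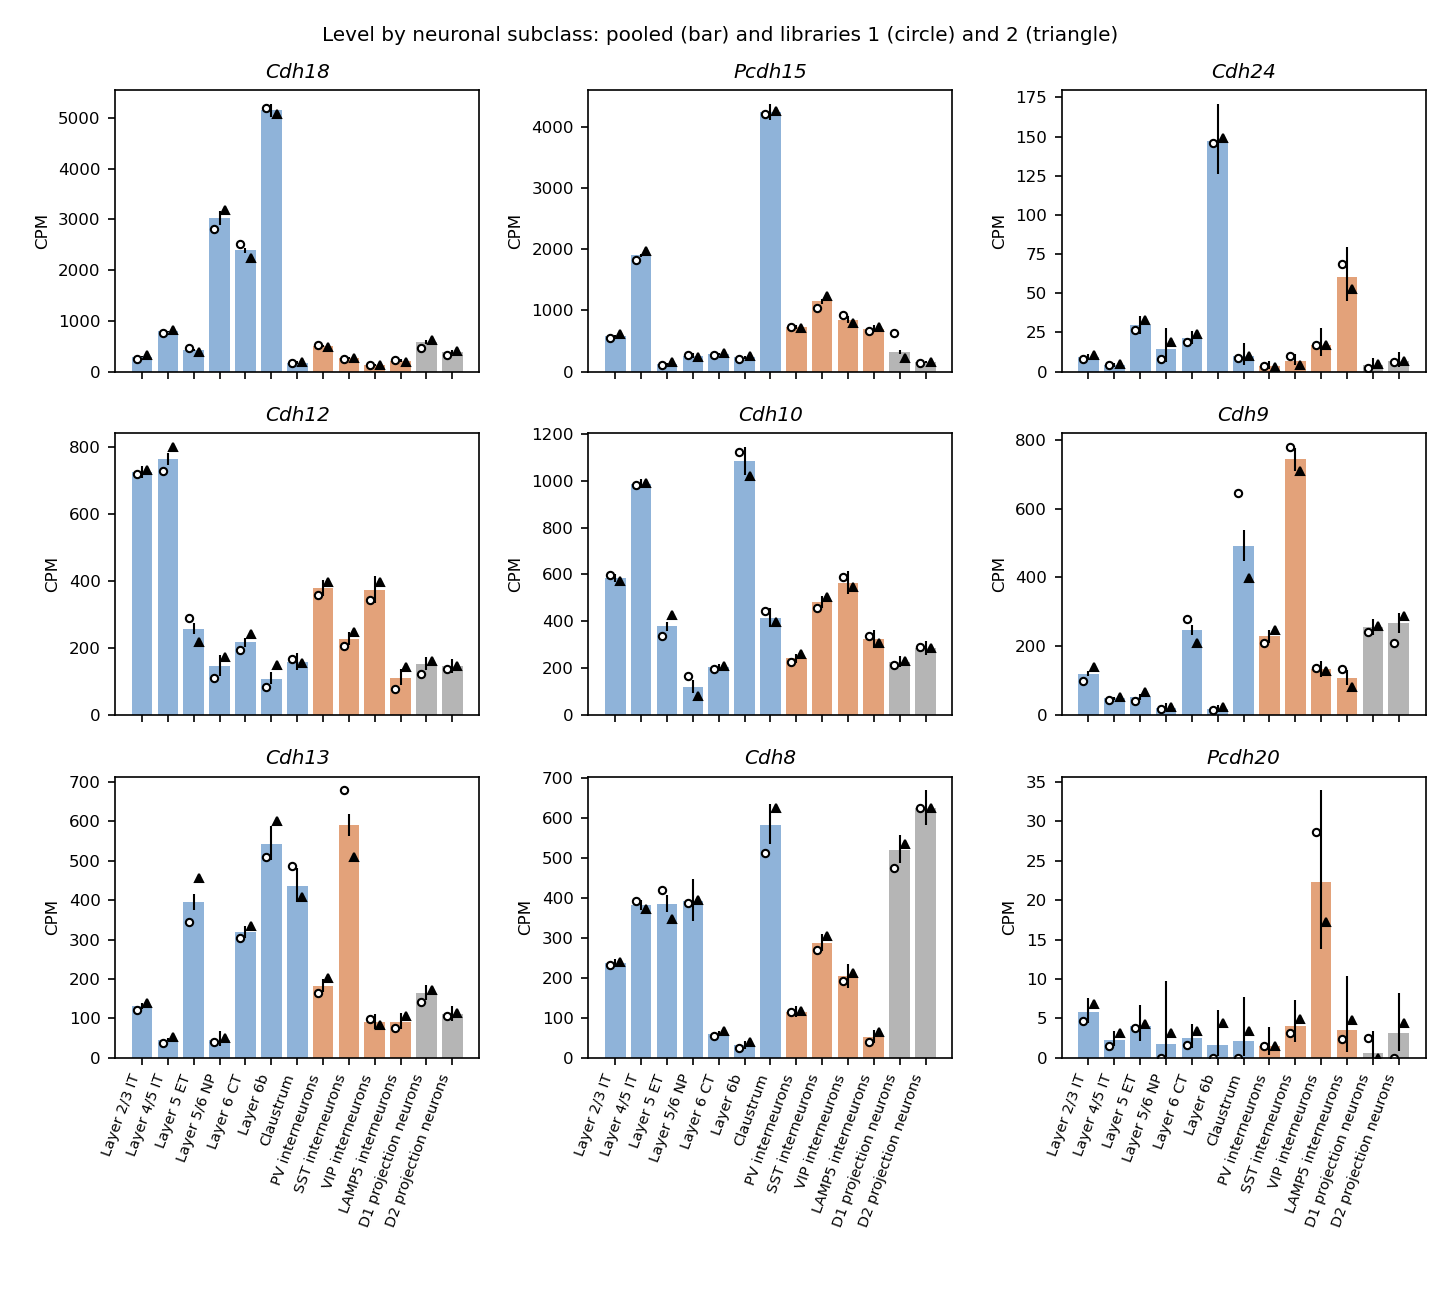
CPM (vertical axes, linear from 0) of 9 members in 13 neuronal subclasses: bars are pooled values with exact Poisson 95% intervals (blue excitatory, orange interneurons, grey striatal), circles library 1 and triangles library 2. Cdh18 rises in the 3 deep excitatory subclasses (up to 5152), Cdh12 in the upper 2 (up to 764), and Cdh24 in layer 6b (147).

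The remaining cadherins are atypical. Cdh13 (T-cadherin), which is held to the membrane by a lipid anchor and lacks the intracellular part, was at 590.4 in SST interneurons, 544 in layer 6b, 437 in claustrum and 396 in layer 5 ET, against 45.5 in layer 4/5 IT and 45.8 in layer 5/6 NP. SST interneurons were highest in library 1 (680.0 in library 1 and 509 in library 2) and layer 6b in library 2 (509 in library 1 and 602 in library 2). Thinned to 1000 UMIs, Cdh13 was seen in 38.8% (32.9 to 44.9, 104 of 268 nuclei, 70.6% unthinned) of layer 6b and 4.92% (4.04 to 5.93, 104 of 2114 nuclei, 17.2% unthinned) of layer 4/5 IT. Cdh23 had no more than 7.42 CPM in any neuronal subclass.

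None of the 3 delta-1 protocadherins spanned a 4-fold range over neurons in the pooled counts and in both libraries, although Pcdh7 and Pcdh9 did so in library 1. Pcdh9 ran from 1812 in layer 5 ET to 7144 CPM (7068 to 7219) in layer 6 CT, Pcdh7 from 345 in LAMP5 interneurons to 1726 CPM (1652 to 1802) in layer 6b, and Pcdh1 from 19.0 in LAMP5 interneurons to 50.4 in claustrum.

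Of the delta-2 protocadherins, Pcdh8 (arcadlin), whose transcription follows neuronal activity, was at 14.7 in layer 2/3 IT, 5.36 in layer 4/5 IT, 17.4 in layer 5 ET, 15.8 in layer 5/6 NP, 6.43 in layer 6 CT, 3.35 in layer 6b and 39.6 in claustrum in excitatory subclasses and at 14.0 in PV interneurons, 42.6 in SST interneurons, 87.0 in VIP interneurons, 47.5 in LAMP5 interneurons, 22.1 in D1 projection neurons and 8.03 in D2 projection neurons in the others. VIP interneurons had 95.2 in library 1 and 80.4 in library 2 and exceeded LAMP5 interneurons 1.83-fold (1.24 to 2.74), with ratios of 2.24 in library 1 and 1.53 in library 2. Pcdh17 was at 399.7 in layer 5/6 NP, 364 in D2 and 339 in D1 projection neurons against 61.0 in layer 4/5 IT. Its highest subclass was D2 in library 1 and layer 5/6 NP in library 2. Pcdh10 ran from 57.8 in layer 6b to 253 in claustrum. Pcdh19, the X-linked gene of a human epilepsy, was at 77.3 in PV interneurons and 68.7 in layer 5/6 NP against 16.9 in D2 projection neurons. Pcdh18 gave 82 UMIs over neurons: 16.3 CPM (11.8 to 21.9) in SST and 8.48 CPM (3.66 to 16.7) in VIP interneurons. It was at 0.627 in layer 2/3 IT, 0.555 in layer 4/5 IT, 0.856 in layer 5 ET, 0 in layer 5/6 NP, 1.66 in layer 6 CT, 0.838 in layer 6b and 1.07 in claustrum, with 1.14 in PV and 1.19 in LAMP5 interneurons, 0.599 in D1 and 0 in D2 projection neurons, where it did not exceed the free RNA limit.

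Among named subclasses Pcdh15 was highest in claustrum, a thin sheet of neurons under the insular cortex. In excitatory subclasses its CPM were 584 in layer 2/3 IT, 1901 in layer 4/5 IT, 125 in layer 5 ET, 255 in layer 5/6 NP, 284 in layer 6 CT, 231 in layer 6b and 4253 in claustrum, and in the others 724 in PV interneurons, 1151 in SST interneurons, 852 in VIP interneurons, 699 in LAMP5 interneurons, 318 in D1 projection neurons and 153 in D2 projection neurons. Claustrum had 4215 in library 1 and 4275 in library 2 and layer 4/5 IT 1825 in library 1 and 1975 in library 2, so the 2 are far apart in both libraries. Claustrum exceeded layer 4/5 IT 2.24-fold (2.16 to 2.31), and layer 5 ET was lowest. An unnamed inhibitory cluster of 77 nuclei, which entered no order of subclasses, exceeded claustrum, at 5617 CPM (5307 to 5939). D1 projection neurons had 633 in library 1 and 217 in library 2, a wide difference between libraries. Thinned to 1000 UMIs, Pcdh15 was seen in 92.2% (87.3 to 95.7, 166 of 180 nuclei, 99.4% unthinned) of claustrum and 8.25% (6.04 to 11, 43 of 521 nuclei, 36.4% unthinned) of layer 5 ET. Gm15398, which overlaps Pcdh15 on the other strand, was at 509 CPM (464 to 557) in claustrum, 182 (174 to 191) in layer 4/5 IT and 21.1 (16.6 to 26.5) in layer 5 ET, and its part in the Pcdh15 counts was not tested. Pcdh20, a gene of few UMIs, stood apart in VIP interneurons. Its CPM were 5.86 in layer 2/3 IT, 2.31 in layer 4/5 IT, 3.99 in layer 5 ET, 1.76 in layer 5/6 NP, 2.49 in layer 6 CT, 1.68 in layer 6b and 2.14 in claustrum, and 1.52 in PV interneurons, 4.07 in SST interneurons, 22.3 in VIP interneurons, 3.56 in LAMP5 interneurons, 0.599 in D1 projection neurons and 3.21 in D2 projection neurons. VIP interneurons had 28.6 in library 1 and 17.2 in library 2, on 21 UMIs, and exceeded layer 2/3 IT 3.80-fold (2.19 to 6.38). With doublets kept Pcdh20 no longer stood apart.

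Over the 7 excitatory subclasses alone, 15 of 24 members spanned a 4-fold range, beside 11.9% of 14178 genes tested, and 14 of 21 did so beside 9.57% where at least 500 UMIs were required. The median ratio of highest to lowest was 6.81 for the members and 2.06 for all genes. Cdh20 in layer 5 ET, Pcdh15 in claustrum and Cdh24 in layer 6b stood apart, 3 of 24 members beside 2.93% of all genes. Cdh20 in layer 5 ET exceeded claustrum 2.82-fold (2.27 to 3.55), and with a minimum of 1000 genes per nucleus it no longer stood apart. Layer 6b had the lowest level of Cdh8 (31.0) and Pcdh10 (57.8), and the intervals of these did not overlap with those of the next layer. The chromosome 15 neighbours did not share 1 pattern. Cdh10 and Cdh18 were highest in layer 6b, Cdh9 in claustrum, Cdh12 in layer 4/5 IT and Cdh6 in layer 5 ET, the last within counting error of layer 5/6 NP.

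Some subclasses held more than 1 cluster, and members differed between clusters of the same subclass, examples that were chosen after their values were seen. The 3 clusters of layer 4/5 IT differed in Cdh12: 1634 CPM (1550.2 to 1720.3) in the cluster led by Ntng1, Slc38a3 and Fyb2, 793 CPM (771 to 816) in that led by Rorb and 504 CPM (481 to 527) in that led by Il1rapl2. The Ntng1 cluster had 1555 in library 1 and 1699.9 in library 2. In Cdh10 they ran the other way, with 115 CPM (93.5 to 139.5), 957 CPM (933 to 982) and 1250.1 CPM (1214 to 1287) in the same order. Of the 2 clusters of layer 6 CT, the smaller one, with 182 nuclei and led by Spag16, Rai14 and Svil, had 1123 CPM (1045 to 1206) of Cdh13, and the larger 188 CPM (175 to 201). Library values for the smaller were 1094 in library 1 and 1149 in library 2, so both libraries show the split. Of SST interneurons, 1 cluster of 126 nuclei led by Mgat4c, Trhde and Lypd6 had 898 CPM (798 to 1007) of Cdh12, while the other 4 clusters ran from 56.7 to 219 CPM. Pcdh15 was higher than in claustrum, in both libraries, in an unnamed inhibitory cluster of 77 nuclei led by Il1rapl2, Igfbp4 and Pde3a, with 4458 in library 1 and 6099 in library 2.

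The number of members seen per nucleus was compared after thinning to 1000 UMIs, so that depth was the same in each. Claustrum nuclei held a mean of 5.22 ± 1.68 members (SD over 180 nuclei), layer 6b 5.19 ± 1.51 and layer 4/5 IT 5.12 ± 1.58. LAMP5 interneurons were at the other end with 3.12 ± 1.52, and D1 and D2 projection neurons had 3.77 ± 1.54 and 3.80 ± 1.51. Outside neurons, oligodendrocyte precursors had 5.31 ± 1.66 and oligodendrocytes 3.62 ± 1.36, but thinning left out 2302 of 3061 oligodendrocytes and 111 of 376 precursors as too shallow. The members' summed level was 16365 CPM in oligodendrocytes and 11446 in precursors. Of these sums Pcdh9 alone gave 12777 and 4290.2, so the higher sum in oligodendrocytes is not a rise shared by the members. Single nuclei spread widely within each subclass. Nuclei of 1 library are not replicates, and no test was made. Unthinned, layer 5 ET, the subclass with the most UMIs per nucleus, had the highest mean among neurons (11.5), against 4.15 when thinned.

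Genes that work with cadherins were taken from 4 lists, and their counts stand beside the 26.5% of all genes that spanned a 4-fold range over neuronal subclasses and the 2.41% that stood apart. Of 10 catenins and junction partners, which link cadherins to actin, 4 spanned a 4-fold range over neuronal subclasses and 0 stood apart. Jup (plakoglobin) was highest in layer 6b at 31.8 CPM, 1.57-fold (1.05 to 2.30) over layer 6 CT, and Plekha7 in layer 6 CT at 107 CPM, 1.56-fold (1.13 to 2.22) over layer 5/6 NP. Over classes, where 10.9% of all genes stood apart, 1 of the 10, Vcl (vinculin), did so in astrocytes at 321 CPM, 4.17-fold (3.36 to 5.15) over striatal projection neurons. Of 8 genes for processing and signalling of cadherins, such as the protease Adam10, 1 spanned the range over subclasses and 0 stood apart. Furin, which cleaves the cadherin precursor, was highest in PV interneurons at 56.1 CPM, 1.70-fold (1.3 to 2.24) over SST interneurons. Of 13 tested genes from the list of large and atypical cadherins, 8 spanned the range and 0 stood apart, with Fat1 highest in LAMP5 interneurons at 70 CPM. Over classes, 1 of these 13, Fjx1, stood apart in astrocytes at 240.0 CPM, 4.09-fold (2.19 to 8.48) over differentiating oligodendrocytes. Fjx1 is not itself a cadherin, so no tested cadherin of this list stood apart over classes. All 4 nectins, adhesion proteins of the same junctions, spanned the range over subclasses, and Nectin3 stood apart in layer 2/3 IT at 152 CPM, 2.80-fold (2.12 to 3.79) over VIP interneurons. Unlike the members, genes of these lists were not kept out of the clustering, and Nectin3 was a leading gene of a layer 2/3 IT cluster.

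The 8 members below 50 UMIs include cadherins of other tissues, such as Cdh1 of epithelia and Cdh5 of endothelium. Cdh5 and Cdh1, chosen after their values were seen, had UMIs in small classes of under 100 nuclei. Cdh5 had 8 UMIs in 68 fibroblasts, or 76.1 CPM (32.8 to 149.9), and 2 UMIs in 55 endothelial nuclei, or 30.7 CPM (3.72 to 111). Cdh1 had 6 UMIs in fibroblasts, or 57.1 CPM (20.9 to 124), all in library 2, and none in endothelial nuclei. These counts are too few to order the classes.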

How the data were processed

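The authors deposited 1 matrix of UMI counts, whole numbers, for genes by barcodes. Per the submitters' processing notes, Cell Ranger 1.3.0, Seurat 3.1.4 and mm10 were used, while per the file headers the matrix was written by software version 3.1.0. Strand use in counting is not given in the sources used here. Barcode endings 1 and 2 were taken as libraries and could not be tied to the METH and Control samples. Barcodes with at least 500 genes were kept (19551 of 20766), and Scrublet, as run by Scanpy 1.11.5, called 889 doublets in library 1 and 660 in library 2 (automatic thresholds 0.117 and 0.173). No mitochondrial gene was found by symbol. Counts were scaled to 10000 per nucleus and log-transformed. From 3000 variable genes without the members, 50 principal components, 20 neighbours and Leiden clusters at resolution 1 were made (scikit-learn 1.9.0, igraph 0.11.9, leidenalg 0.10.2). Only clusters left unnamed, of at least 60 nuclei, were clustered again at resolution 0.5. Subclasses came from a separate clustering at resolution 1 within the excitatory, inhibitory and striatal classes, each with its own variable genes. A cluster was named for its best-scoring marker list (mean relative level) if that led the next list 1.4 times and its leading genes did not go against it. For the classes this gave 31 clusters in the first step and 46 after unnamed ones were clustered again, of which 11 stayed unnamed. The naming limits and the 4-fold range were chosen after the data were seen, and the members, marker lists and gene lists were chosen with earlier results of these data known.

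Class sums, CPM and exact intervals were computed with SciPy 1.17.1, NumPy 2.4.6 and pandas 2.3.3 (Python 3.11.15) and tested on simulated data, and figures were drawn with matplotlib 3.10.9. The free RNA limit of a gene was the lowest ratio of its upper interval bound to an index over classes of at least 200000 UMIs, times the index of the class. The index was the CPM of Slc17a7, or in excitatory neurons the summed CPM of 5 myelin genes times 0.177. It is an upper limit, and the class that gave the lowest ratio for a gene cannot exceed it by construction. Values in every class or subclass were given for the 12 members with the largest ratio of highest to next neuronal subclass and the 6 with the largest ratio over classes, and in short for the others. Alternatives were the members kept among variable genes, at least 1000 genes per nucleus, doublets kept, resolution 2, free RNA subtracted, each library alone, a 1.5-fold limit and a minimum of 500 UMIs.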

Additional observations from a re-analysis of the deposited data

How the results depend on the processing

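The counts of members that stood apart by class, subclass and layer moved by over 1.5 times under these settings. By class, 5 became 2 with at least 1000 genes per nucleus, where Cdh23 and Pcdh9 remained and 6 classes could be compared, 2 (the same 2 genes, over 8 classes) with doublets kept, and 9 at a 1.5-fold limit, beside 18.1% of all genes. The share of all genes for the first 2 of these settings is not given here. Those 2 counts therefore cannot be set against a share of all genes. By neuronal subclass, 3 became 5 in library 1 alone (Cdh4 and Cdh22 in addition, 5.11% of genes) and 8 at 1.5-fold (5.71%). By excitatory layer, 3 became 6 in library 1 alone (Cdh9, Cdh22 and Pcdh8 in addition, 6.57%) and 7 at 1.5-fold (6.81%). The count with a 4-fold range moved by over 1.5 times in 1 case, by class with at least 1000 genes, from 20 to 12 (22.3% of genes). The cause of these changes was not tested, other than fewer classes or a lower limit. Some single ratios of highest to next class or subclass fell outside their counting interval, and the number that did not is given beside each count. They numbered 1 with the members kept among variable genes (51 did not), 3 at resolution 2 (49) and 5 with free RNA subtracted (47). There were 7 with at least 1000 genes (30), 9 with doublets kept (38), 17 in library 1 alone (34) and 14 in library 2 alone (38). No ratio whose interval lay above 1 fell below 1. Depth limits the members of few UMIs: Pcdh18, Pcdh20, Cdh19 and Cdh23 over neurons rest on 82, 156, 161 and 76 UMIs. No paired analysis was possible, since each group was 1 library of pooled mice and no label ties a library to METH or Control.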
